A study of Mus musculus with 39 samples.

Results

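Zinc finger protein (Zfp) RNAs were followed through a density gradient of mouse liver. They were chosen by symbol (Zfp followed by a number) among the genes listed in both deposited tables, with a mean TPM of at least 1 over the libraries of gradient 2. Zfp36, a CCCH zinc finger protein of another family, was left out. Of 293 such symbols, 256 were kept, out of 13230 genes in both tables and 11458 genes that met the same limit. The mean TPM in gradient 2 chose the members, so levels there are a description. Just inside the limit were Zfp420 and Zfp334 (both 1.02 TPM) and Zfp11 (1.04 TPM). Just outside were Zfp966 and Zfp967 (both 0.998 TPM, with equal values in every library) and Zfp619 (0.996 TPM).

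ATLAS-Seq separates a nucleus-depleted, detergent-free homogenate of wild-type FVB female mouse liver by density in sucrose, so that RNA bound to organelles or large complexes can be told from RNA in lighter material. All libraries were of this single genotype and no treatment was given. Gradients 1 and 2 were independent biological replicates, with 17 and 22 libraries, and fractions are numbered from light (3 or 4) to dense (21 or 24). The 17 fraction numbers present in both gradients were compared, and 3 zones of 4 fractions each were set as light (fractions 4 to 7), middle (10 to 13) and dense (16 to 19). A TPM value is a share of the RNA in its own fraction: a lower value in dense fractions does not give the number of molecules there. Each fraction had 1 library per gradient, so the 2 gradients are the only replicates.

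Most Zfp genes encode C2H2 zinc finger proteins, in which cysteine and histidine pairs hold a zinc ion and each finger reads a few bases of DNA. Fingers in a row are joined by a short conserved linker. Many of these proteins also carry a KRAB domain, which recruits the corepressor Trim28 and, with it, histone methyltransferase, HP1 and deacetylase complexes that silence DNA such as retroelements. Others in the family act on RNA, ribosomes or ubiquitin.

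The linker is a conserved stretch of these proteins, and its coding bases are shown here because the RNAs were later grouped by their number of linkers. The 18 capital bases encode the 6 residues of the linker, with 6 bases on each side in lower case. The sequences are from GENCODE M21 transcripts on GRCm38 and read 5′ to 3′ on the strand of the gene. Zfp120, Zfp982, Zfp568 and Zfp809 also encode a match to a KRAB-like pattern, while Zfp180 and Zfp605 do not.
Zfp120 (chr2:150117909-150117938, minus strand): agtcatACAGGAGAGAAACCTTATgaatgt
Zfp982 (chr4:147512554-147512583, plus strand): attcatACAGGAGAGAAACCTTACaaatgc
Zfp568 (chr7:30023537-30023566, plus strand): atccacACCGGTGAGAAGCCCTATaagtgc
Zfp809 (chr9:22239076-22239105, plus strand): aaacatACGGGCGAGAAACCATATgaatgt
Zfp180 (chr7:24105172-24105201, plus strand): acccacACAGGGGAAAAGCCCTACaagtgc
Zfp605 (chr5:110128491-110128520, plus strand): actcacACTGGGGAGAAACCTTACaaatgc
All 6 windows lie in coding exons. Over the first window of 175 members, the 18 linker bases took 121 different forms. The most common form, ACTGGAGAGAAACCCTAT, was found in 12 members, and that of Zfp982 in 6. Few of the longer stretches were shared: the median member had 3.99% of its 31-base words in an RNA of another gene, while 15 members had over 50% and their values may hold reads of near copies.

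Zfp RNAs were of low abundance and lay toward the light end. Their median level was 5.58 TPM in gradient 1 (quartiles 3.12 and 11.4) against 17.2 TPM over all genes, and 4.23 TPM in gradient 2 against 14.4. Their summed level in gradient 1 was highest in fraction 5, at 3698 TPM, and lowest in fraction 17, at 1746 TPM. In gradient 2 the sum was also highest in fraction 5, at 3098 TPM, and lowest in fraction 24, at 1182 TPM. Relative to each gene's own mean, the median Zfp RNA stood at 1.52 in fraction 5 of gradient 1 (all genes 1.07) and at 1.67 in fraction 5 of gradient 2 (all genes 1.15). Fraction 5 was the single highest fraction for 110 of the 256 RNAs over the 17 libraries of gradient 1 and for 82 over the 22 of gradient 2. The same count over all genes is not given here, so these peaks cannot be called particular to Zfp RNAs.

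**Figure D1:**
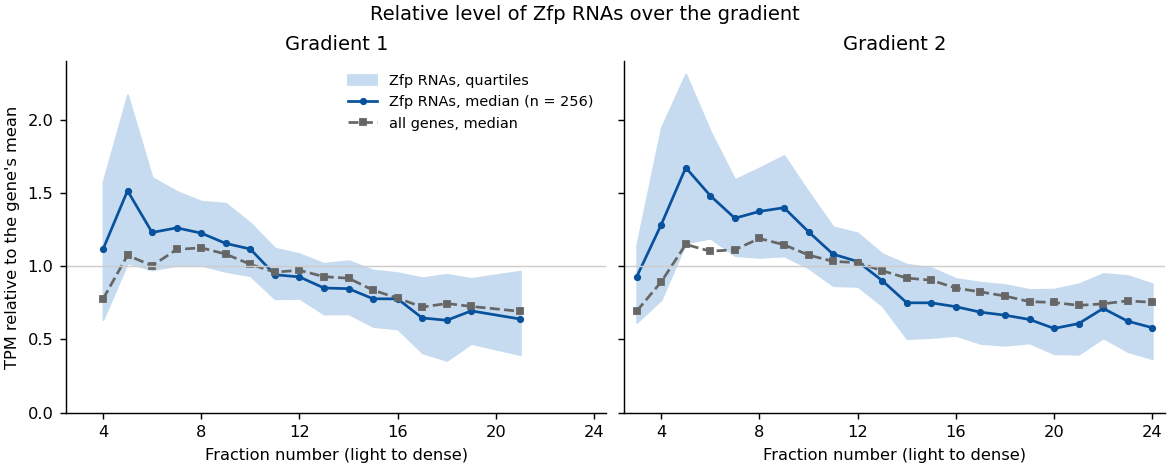
Level of 256 Zfp RNAs by fraction number in gradient 1 (left) and gradient 2 (right), as TPM divided by each gene's mean over the fractions of its gradient; the line is the median over Zfp RNAs, the band its quartiles and the dashed line the median over all genes. Zfp RNAs peak at fraction 5, at 1.52 and 1.67, and lie under the all-gene line in the denser fractions.

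The center of sedimentation, the mean fraction number weighted by TPM over the 17 shared fractions, had a median of 10.8 in gradient 1 (quartiles 9.79 and 11.9) and 10.5 in gradient 2 (9.55 and 11.5). The median over all genes was 11.3 in both gradients (quartiles 9.64 and 13.0 in gradient 1, 10.0 and 12.7 in gradient 2). In both gradients, 153 of the 256 RNAs (59.8%) had a center below the all-gene median, against 45.6% of all genes. Single RNAs ranged from 6.60 (Zfp982) to 14.3 (Zfp622) in gradient 1, so the group was not held in one zone. Its quartiles still lay closer together than those of all genes in both gradients.

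All 256 members entered the test between zones (limma on log2(TPM + 1) zone means, n = 2 gradients, Benjamini-Hochberg over 11754 genes). The standard errors (SE) given with changes come from this fit. They are moderated over all genes and do not use the pairing of zones within a gradient. From the light to the dense zone, 135 RNAs (52.7%) fell and 7 (2.73%) rose at an adjusted p below 0.05. Of all genes tested, 39.6% fell and 22.3% rose. With the gradient as a block, 168 fell (50% of all genes) and 21 rose (30.5% of all genes). After quantile normalization of the libraries 91 fell (35.5%, against 29.9% of all genes) and 25 rose (9.77%, against 30.7%), with a median change of -0.30 against -0.05 over all genes. As deposited, the median change of Zfp RNAs was -0.80 on the log2(TPM + 1) scale, against -0.43 over all genes. It was -0.72 in gradient 1 and -0.81 in gradient 2. The sign was the same in both gradients for 231 RNAs, a share (90.2%) near that of all genes (92.0%). Of these, 193 RNAs (75.4% of the members, against 56.4% of all genes) were lower in the dense zone.

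A simpler reading of the libraries gave a like picture. For 98 Zfp RNAs (38.3%) each of the 8 light libraries was above each of the 8 dense libraries, against 28.9% of all genes. The reverse was found for 6 (2.34%), against 16.9% of all genes. Because a member could pass the limit through the light fractions alone, the 235 members with at least 1 TPM in every zone were also counted: 116 fell (49.4%), 7 rose (2.98%) and the median change was -0.71. Of the 10597 genes of the whole table that met the same limit, 36.3% fell, 24.2% rose and the median was -0.30. With the block 148 of the 235 fell (63.0%, against 47.0%) and 21 rose (8.94%, against 33.0%).

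Part of the fall was already present by the middle of the gradient. From the light to the middle zone 68 RNAs fell (26.6%, against 24.1% of all genes) and 6 rose (2.34%, against 23.5%), with a median change of -0.35 against 0.05 over all genes. With the gradient as a block 121 fell (47.3%, against 35% of all genes) and 31 rose (12.1%, against 37.2%). From the middle to the dense zone 58 fell (22.7%, against 22.5%) and 0 rose (against 4.79%), with a median of -0.45 against -0.28. With the block 128 fell (50%, against 39.3% of all genes) and 6 rose (2.34%, against 14.1%). Without it, 2 RNAs were higher at an unadjusted p below 0.05 (limma), against 1043 of the 11754 genes tested. In each of these 2 steps the share that fell was close to the background without the block and above it with the block, and the share that rose lay below it in both fits. Quantile normalization left 57 falls (22.3%, against 24.2% of all genes) and 17 rises (6.64%, against 26.9%) to the middle zone, and 18 falls (7.03%, against 13.7%) and 4 rises (1.56%, against 10.3%) from middle to dense. Under that scaling neither step had a share of falls above the background.

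Low level went with a light position among all genes too, so Zfp RNAs were also set beside genes in the same range of mean TPM in gradient 1. In the 64 rarest members (1.10 to 3.12 TPM) the median change from light to dense was -0.84, against -0.91 for the 1382 genes of that range. In the next 64 it was -0.90 against -0.79. In the 64 at 5.59 to 11.4 TPM it was -0.91 against -0.63, and in the 64 most abundant (11.5 to 65.1 TPM) -0.59 against -0.23. The distance to the other genes was thus seen among the more abundant Zfp RNAs and not among the rarest.

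The summed markers of several cell types were also lower in dense libraries. Summed markers of Kupffer cells (5 of 5 genes found) were at 112 to 163 TPM in light libraries and 39.5 to 51.0 TPM in dense ones. Of these 5 genes 4 fell, where 39.6% of all genes fell and 22.3% rose. Stellate markers (4 of 5) were at 45.8 to 90.8 and 9.79 to 25.0 TPM, and sinusoidal endothelial markers (5 of 5) at 34.8 to 68.8 and 15.1 to 33.9 TPM. All 4 stellate genes and 3 of the 4 endothelial genes tested fell. The summed level of 7 hepatocyte markers, which the most abundant of them set, was 25581 to 57779 TPM in light and 9158 to 20983 TPM in dense libraries, and 3 of the 7 fell and 1 rose, which is near the shares of all genes. The sum of 2 erythroid markers (of 3 listed) was 255 to 494 and 66.4 to 106 TPM, and 1 of them fell, while with the block the other rose. Cholangiocyte markers (3 of 4) were near their floor, at 2.35 to 5.55 and 3.18 to 6.78 TPM, and lymphocyte markers (2 of 3) at 1.34 to 3.54 and 0 to 1.38 TPM. Of 6 listed nuclear-retained RNAs found, 3 fell and 0 rose, and with the block, where 50% of all genes fell and 30.5% rose, 5 fell and 1, Mlxipl, rose. The count without the block is near the share of all genes. Those that fell without the block were Malat1 (change -4.11 ± 0.41 SE, adjusted p = 0.000664), Neat1 (-3.18) and Kcnq1ot1 (-2.03), and Mlxipl was at 0.53 (adjusted p = 0.382; 0.0177 with the block). The part of these cells and of nuclear RNA in the Zfp result was not tested. All fractions of a gradient came from 1 homogenate of mixed cells, so the cell type that an RNA came from cannot be read from its position.

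Among Zfp proteins that act on RNA or ribosomes, positions were split. Of 10 tested from a list of 11, 4 rose (22.3% of all genes rose) and 3 fell (39.6% of all genes fell), and 1 of the rising genes, Zfp593, shared 71.5% of its 31-base words with another gene. Zfp207, which binds microtubules and the checkpoint protein Bub3, ranged from 32.4 to 46.5 TPM (median 39.5) in the 8 light libraries and from 65.0 to 83.4 TPM (median 73.6) in the dense ones. Its zones did not overlap, and its change was 0.90 ± 0.15 (SE, n = 2, limma adjusted p = 0.00336). It was highest at fraction 15 of gradient 1 and fraction 16 of gradient 2, and from the middle to the dense zone it changed by 0.18 (adjusted p = 0.439). Zfp326, part of a complex that links RNA polymerase II to splicing, was at 3.14 to 6.08 TPM (median 5.25) in light and 12.7 to 16.6 TPM (median 13.6) in dense libraries. This was the largest rise of any Zfp RNA (1.34 ± 0.21, adjusted p = 0.00311).

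Zfp622, a factor of large ribosomal subunit maturation, was at 8.03 to 27.4 TPM (median 14.0) in light and 20.2 to 50.4 TPM (median 34.6) in dense libraries. These ranges overlapped through fractions 6 and 7 of gradient 1, and the change was 1.20 ± 0.36 (adjusted p = 0.0304). Without fraction 4 its adjusted p was 0.0597, and with wide zones 0.0508. Zfp593, which acts in export of the same subunit, was at 2.63 to 7.09 TPM (median 5.81) in light and 8.51 to 16.4 TPM (median 13.6) in dense libraries. It was highest at fraction 12 of gradient 1 and fraction 15 of gradient 2 (change from light to dense 1.17 ± 0.22, adjusted p = 0.00538).

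Of the RNAs of this list that fell, Zfp706 was at 79.1 to 151 TPM (median 92.0) in light libraries and at 20.5 to 29.1 TPM (median 24.4) in dense ones (change -2.01 ± 0.18, adjusted p = 0.000484). Zfp106, an RNA-binding protein needed by motor neurons, was at 49.3 to 123 TPM (median 91.9) and 14.6 to 20.1 TPM (median 17.9), with a change of -2.16 ± 0.19 (adjusted p = 0.000502). Both were higher in every light library than in any dense one. Zfp346, which binds double-stranded RNA, changed by -0.88 ± 0.30 (adjusted p = 0.0459). The remaining members did not pass: Zfp638 at 0.06 (adjusted p = 0.793), Zfp830 at 0.64 (adjusted p = 0.0687; 0.00675 with the block) and Zfp598. With the block 5 of the 10 rose (30.5% of all genes) and 4 fell (50% of all genes).

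Zfp598, the ubiquitin ligase that marks collided ribosomes, was highest between these extremes. It was at 17.4 to 87.1 TPM (median 39.6) in light, 42.3 to 100.2 TPM (median 64.8) in middle and 19.2 to 42.2 TPM (median 32.6) in dense libraries. It was highest in fraction 8 of both gradients, and its change from light to dense was -0.35 ± 0.35 (adjusted p = 0.412; 0.0409 with the block). From light to middle it changed by 0.74 ± 0.35 (adjusted p = 0.130; 0.0036 with the block) and from middle to dense by -1.09 ± 0.35 (adjusted p = 0.0672; 0.00159 with the block). Without the block 0 members passed both of these tests in opposite directions. With it 18 (7.03%) were highest in the middle zone by both tests, Zfp598, Zfp451 and Zfp768 among them, against 14.2% of all genes, and 1 (0.391%) was lowest there, against 0.978% of all genes.

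Zfp91, another ubiquitin ligase, had the most alike profiles of the whole family in the 2 gradients (Pearson's R = 0.987 over 17 fractions). It was at 70.6 to 186 TPM (median 149) in light, 22.8 to 66.9 TPM (median 41.0) in middle and 12.7 to 22.4 TPM (median 16.6) in dense libraries. The zones did not overlap, and the fall was -2.89 ± 0.16 (adjusted p = 0.000301). Its gene lies at chr19:12763660-12796126 (GRCm38, minus strand). Of the other members of the ubiquitin and SUMO list, Zfp451, a SUMO ligase, changed by 0.03 (adjusted p = 0.951).

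**Figure D2:**
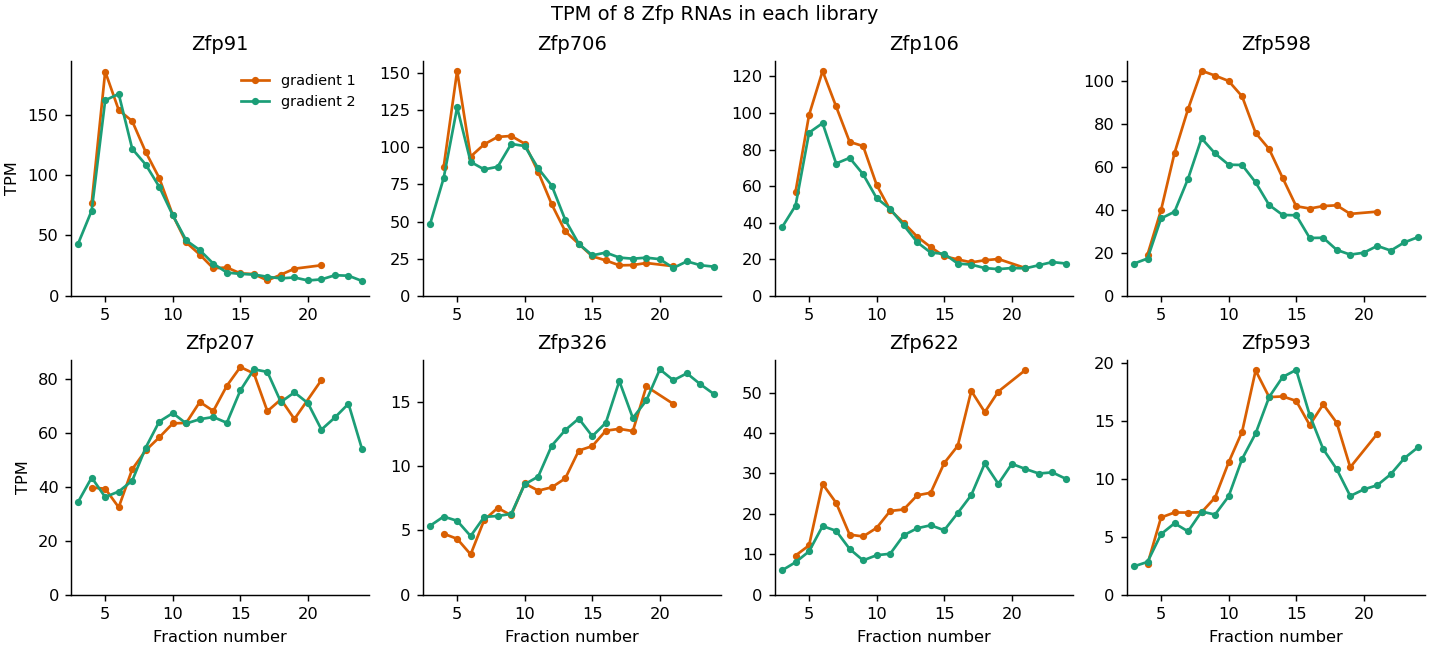
TPM of 8 Zfp RNAs in each library against fraction number, with gradient 1 in orange and gradient 2 in green. Zfp91, Zfp706 and Zfp106 are highest in fractions 5 or 6, Zfp598 in fraction 8, and Zfp326 is highest at fractions 19 and 20 (gradients 1 and 2) and Zfp622 at fractions 21 and 18, while Zfp207 is highest at fractions 15 and 16 and Zfp593 at fractions 12 and 15.

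Of 17 Zfp genes listed for roles at chromatin and promoters, 14 were found and tested. Of these, 5 fell (39.6% of all genes fell) and 0 rose (22.3% of all genes rose). Zfp148, which binds GC-rich promoters, changed by -2.20 ± 0.27 (adjusted p = 0.00121). Zfp644, a partner of the histone methyltransferases G9a and GLP, changed by -2.03 ± 0.25 (adjusted p = 0.00121). Zfp609 changed by -1.50 ± 0.19 (adjusted p = 0.00145). Zfp568, which represses a placental Igf2 transcript, changed by -1.40 ± 0.20 (adjusted p = 0.00206), and Zfp809, which silences proviruses, by -0.72 ± 0.19 (adjusted p = 0.0185). Zfp445, a keeper of genomic imprints, did not pass the test, at -0.34 ± 0.17 (adjusted p = 0.117; 0.0300 with the block). With the block 8 of the 14 fell (50% of all genes) and 1 rose (30.5% of all genes).

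The largest falls of the family were found at low and at high levels. Zfp982 was listed at 0 in fractions 18, 19 and 21 of gradient 1 and in fractions 15 and 21 of gradient 2. Its light libraries held 7.54 to 31.1 TPM (median 11.3) and its dense ones 0 to 1.38 TPM, so its fitted change of -3.20 ± 0.37 (adjusted p = 0.00106) depends on the pseudocount of 1. After Zfp91 followed Zfp367 at -2.63, Zfp488 at -2.60, Zfp605 at -2.59, Zfp120 at -2.33, Zfp972 at -2.30 and Zfp180 at -2.30 (adjusted p from 0.000353 to 0.00544). For each of these 8 RNAs every light library was above every dense one. Zfp972 shared 71.8% of its 31-base words with another gene. Zfp488 is a corepressor known from oligodendrocytes.

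The 7 RNAs that rose were Zfp326, Zfp622, Zfp593, Zfp212 (0.97 ± 0.27, adjusted p = 0.0234), Zfp207, Zfp692 (0.82 ± 0.27, adjusted p = 0.0403) and Zfp750 (0.74 ± 0.20, adjusted p = 0.0210). Zfp750, a regulator of epidermal differentiation, was at 2.80 to 8.28 TPM (median 6.36) in light and 9.23 to 12.9 TPM (median 11.1) in dense libraries. Zfp692 was of low level, at 0.543 to 3.33 TPM (median 1.31) in light and 2.04 to 4.59 TPM (median 2.91) in dense libraries, which overlap, and without fraction 4 its adjusted p was 0.0657. By the patterns used, none of the 7 encoded a linker or a KRAB-like match, and Zfp750 had 0 fingers. A KRAB domain of another form would be missed by this pattern.

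Among the 8 most abundant members in gradient 1 were 3 that did not pass the test of dense against light: Zfp598, Zfp395 (-0.47 ± 0.23, adjusted p = 0.125; 0.0144 with the block) and Zfp768 (-0.06 ± 0.46, adjusted p = 0.914). Zfp395 held a broad profile, with 36.5 to 85.6 TPM in light and 27.6 to 57.6 TPM in dense libraries. Zfp768 was at 11.4 to 54.5 TPM in light and 15.8 to 34.3 TPM in dense libraries, and 41.3 TPM on average in gradient 1 against 21.0 in gradient 2. Zfp655 fell by 1.22 on the log2(TPM + 1) scale (adjusted p = 0.00208), from 38.5–76.5 TPM to 14.1–27.9 TPM.

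Most Zfp RNAs had nearby centers in the 2 gradients. The center of 244 of 256 (95.3%) differed by at most 1 fraction between gradients, against 85.3% of all genes. The differences leaned one way: 188 of the 256 centers (73.4%) were lighter in gradient 2, against 57.8% of all genes, with a median difference of -0.28 fractions, against -0.09 over all genes. The highest fraction was the same for 95 RNAs (37.1%, against 42.1% of all genes) and within 1 fraction for 160 (62.5%, against 66.6%). Pearson's R over the 17 fractions, which share their neighbors and are no replicates, had a median of 0.824 (quartiles 0.590 and 0.924) against 0.903 over all genes, and 78 RNAs (30.5%) were above 0.9 against 50.8% of all genes. Spearman's rho had a median of 0.778 against 0.838.

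The lower R went with the low level. In the 4 level groups of 64 members, from rare to abundant, the median R was 0.707, 0.802, 0.880 and 0.879, and genes of the same TPM ranges had 0.739, 0.806, 0.862 and 0.920. Zfp91, Zfp652 (R = 0.984) and Zfp106 (R = 0.983) were the most alike between gradients. The least alike were Zfp438 (R = -0.163), Zfp7 (-0.153) and Zfp689 (-0.0778), with 1.29 to 2.63 TPM on average. Zfp438 was centered at 12.4 in gradient 1 and 10.5 in gradient 2, and Zfp689 at 12.3 and 10.7. In total 5 RNAs had a negative R. The remaining 2, Zfp638 and Zfp637, were among the more abundant members, unlike the trend with level. Zfp638 had R = -0.00187 at 15.1 TPM in gradient 1 and 15.0 in gradient 2, and its profile was nearly flat, at 11.5 to 19.7 TPM in all 24 zone libraries. Zfp637, singled out after its values were seen, was at 11.3 TPM in gradient 1 and 10.8 in gradient 2 (R = -0.0351). In gradient 1 it went from 13.9 TPM in fraction 7 to 0.0169 in fraction 8 and 10.4 in fraction 9, and in gradient 2 from 7.26 in fraction 18 to 0.593 in fraction 19 and 0 in fraction 20. Its change from light to dense was -0.36 in gradient 1 and -1.64 in gradient 2, the widest gap of all Zfp RNAs, and it counts among the 135 that fell (adjusted p = 0.0407).

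**Figure D3:**
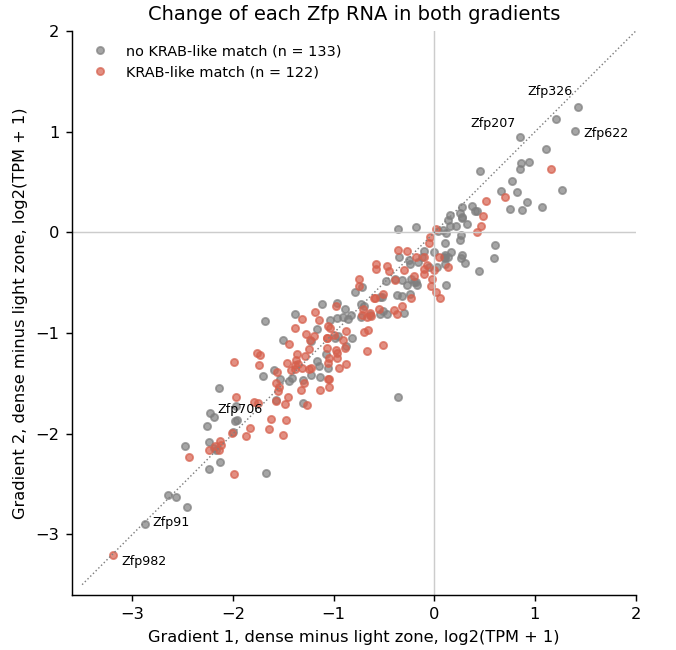
Dense minus light zone, as a difference of mean log2(TPM + 1), in gradient 1 (x axis) and gradient 2 (y axis), 1 point for each of 255 Zfp RNAs (Zfp939 is not drawn), with RNAs that encode a KRAB-like match in red and the others in gray; the dotted line marks equal changes. Most points lie near the line and below 0, and 193 of 256 were lower in the dense zone of both gradients.

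The position was then set beside features of the RNA that the choice of members did not use, known for 255 of 256 (not for Zfp939). An RNA was called KRAB-like when its reading frame matched a pattern of the KRAB box, and fingers and linkers were counted in the same way. The absence of a match does not show that a protein lacks a KRAB domain, and how many domains the pattern missed was not tested. The TPM were quantified on RefSeq transcripts and the features come from GENCODE M21, so the transcript behind a feature may differ from the one quantified, and its effect on the comparisons with GC content, length, linkers and KRAB-like matches was not tested. Of the 122 KRAB-like RNAs 82 (67.2%) fell and 0 rose, with a median change of -1.08 and median centers of 10.2 and 9.91. Of the other 133, 53 (39.8%) fell and 7 (5.26%) rose, with a median change of -0.43 and centers of 11.5 and 11.0. Of all genes 39.6% fell and 22.3% rose, so the share of the others that fell was near the background. With the block, where 50% of all genes fell and 30.5% rose, 97 of the KRAB-like RNAs fell and 3 rose, and 71 of the others fell and 18 rose. The KRAB-like RNAs were also rarer, at a median of 3.88 TPM in gradient 1 against 9.49 TPM. With 10 or more fingers in both, the medians were -1.08 for 92 KRAB-like RNAs and -0.57 for 50 others. At an unadjusted p below 0.05 (limma) 0 KRAB-like RNAs rose as well, where 2844 of the 11754 genes tested rose. A like count was found under other symbols: of 45 other genes with a KRAB-like match 29 fell and 0 rose (median -0.88), and with the block 37 fell and 1 rose.

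The number of linkers followed the same order. Of 82 RNAs with 6 or more linkers, such as Zfp180 and Zfp982, 65 fell and 0 rose (median -1.26). Of 100 with 1 to 5, 47 fell and 0 rose (median -0.64), and of 73 with none, 23 (31.5%) fell and 7 (9.59%) rose (median -0.23), both under the shares of all genes given above. At an unadjusted p below 0.05 (limma), 0 RNAs with a linker rose, where 2844 of the 11754 genes tested rose. With the block, where 50% of all genes fell and 30.5% rose, 74 of those with 6 or more linkers fell and 0 rose. Of those with 1 to 5, 62 fell and 3 rose, and of those with none 32 fell and 18 rose. Of 35 genes with other symbols and 6 or more linkers 24 fell and 0 rose (median -0.94), and with the block 30 fell and 1 rose. Only 21 of these 35 also met the members' limit in gradient 2. By length the groups lay closer together. The median Zfp mRNA was 3342 bases long against 2863 over all genes, and 3 groups of 85 RNAs from short to long had median changes of -0.67, -0.81 and -0.99. Spearman's rho of length with the center, across RNAs, was -0.10 in gradient 1 and -0.07 in gradient 2.

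GC content was the feature most closely tied to position. Across 255 Zfp RNAs, Spearman's rho of GC content with the center was 0.588 in gradient 1 and 0.610 in gradient 2, against 0.170 and 0.211 across 10546 genes. It was 0.649 and 0.671 among the 122 KRAB-like Zfp RNAs, and lower, at 0.372 and 0.378, among the 133 other Zfp RNAs. These RNAs share their libraries and are not replicates. The median GC content of Zfp mRNAs was 45.0% against 50.3% over all genes. In the group of lowest GC content (up to 41.4%), 73 of 85 fell and 0 rose, with a median change of -1.30. In the group of highest GC content (above 49.8%), 20 of 85 (23.5%) fell and 5 (5.88%) rose, with a median of -0.26, where 39.6% of all genes fell and 22.3% rose. Within the same limits, other genes had medians of -0.997 (777 genes, 434 lower and 106 higher) and -0.12 (5628 genes, 1738 lower and 1526 higher). With the block, where 50% of all genes fell and 30.5% rose, 79 of the lowest group fell and 1 rose, 53 of the 85 in the middle group fell and 6 rose (42 and 2 without it), and 36 of the highest group fell and 14 rose. The other genes were then 500 lower and 148 higher in the lowest limits, and 2366 lower and 2118 higher in the highest.

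At like GC content the KRAB-like and the other Zfp RNAs lay close to each other. In the group of lowest GC content the median change was -1.32 for 67 KRAB-like RNAs and -1.28 for 18 others. In the middle group it was -0.68 for 40 and -0.63 for 45. In the highest group it was -0.29 for 15 and -0.17 for 70. KRAB-like RNAs had a median GC content of 40.8% and the others 50.6%, so most of one class lay where few of the other did. Linkers and GC content also went together (rho = -0.564), so these features cannot be told apart here.

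**Figure D4:**
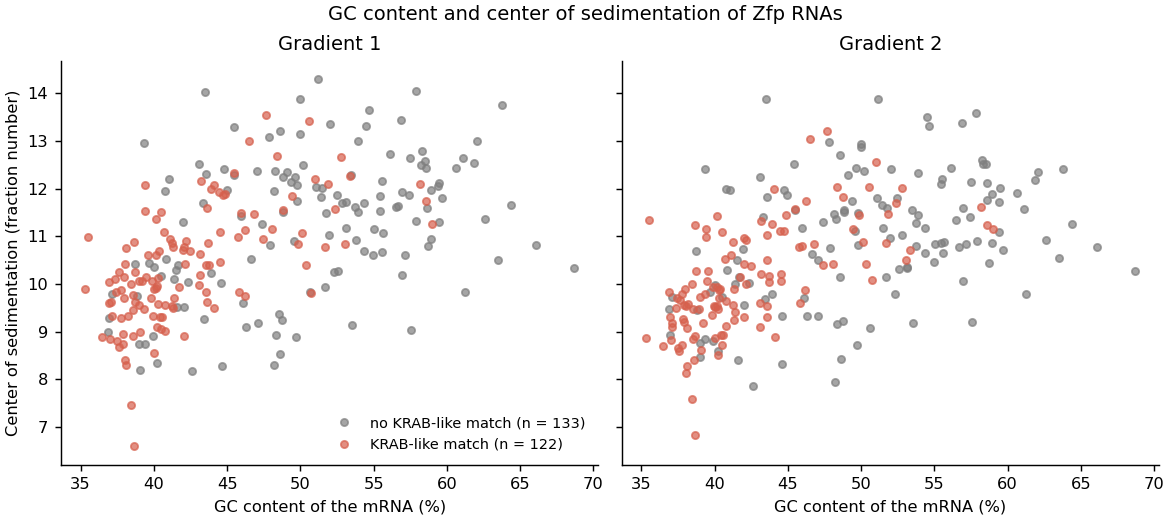
Center of sedimentation of each Zfp RNA (TPM-weighted mean fraction number over 17 fractions) against the GC content of its mRNA in percent, for gradient 1 (left) and gradient 2 (right), with KRAB-like RNAs in red and the others in gray. RNAs of low GC content have lower centers in both gradients, with rho of 0.588 and 0.610 across 255 RNAs.

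Many Zfp genes stand in clusters of the genome. The shares below compare with 39.6% of all genes that fell, and differences between chromosomes were not tested. Chromosome 7 held 61 members, of which 20 fell (median -0.40). Of 33 members on chromosome 17, 22 fell (median -1.26), and of 16 on chromosome 2, 9 fell (median -1.52). On chromosomes 13, 8, 5, 9, 11 and 4 the falls were 17 of 23, 11 of 20, 10 of 14, 10 of 12, 4 of 12 and 6 of 10. Of the 7 rises 3 were on chromosome 11 (3 of its 12 members, where 22.3% of all genes rose) and 1 each on chromosomes 5 and 4. Of 13 on chromosome 6, 3 fell and 1 rose (median -0.02). With the block, where 50% of all genes fell and 30.5% rose, 32 of the 61 on chromosome 7 fell and 5 rose, 7 of the 12 on chromosome 11 fell and 4 rose, and 3 of the 13 on chromosome 6 fell and 3 rose. On chromosomes 17, 2, 13, 8, 5, 9 and 4 the falls were then 28, 11, 20, 13, 10, 11 and 6. Members of a cluster are related in sequence and are not independent of each other.

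The partners of KRAB zinc finger proteins were split. Of 22 tested genes of the corepressor machinery 13 rose (22.3% of all genes rose) and 6 fell (39.6% of all genes fell), with a median change of 1.08. Trim28, the scaffold that the KRAB domain binds, changed by 1.18 ± 0.28 (adjusted p = 0.0125), and the histone methyltransferase Setdb1 by 1.23 ± 0.24 (adjusted p = 0.00621). The largest changes were those of Chd4 (4.76 ± 0.61, adjusted p = 0.00139), Mbd3 (-2.53 ± 0.17, adjusted p = 0.000321), Cbx1 (2.36 ± 0.20, adjusted p = 0.000462) and Hdac1 (2.19 ± 0.19, adjusted p = 0.000482). No KRAB-like Zfp RNA rose by this test, and 3 of 122 did with the block. In other zinc finger families the falls are to be read against the same 39.6%: 13 of 38 Zbtb RNAs fell and 3 rose (median -0.50), 4 of 13 Klf RNAs fell and 1 rose (-0.59), 2 of 5 Sp RNAs fell and 0 rose (-0.86), and 5 of 17 Zkscan and Zscan RNAs fell and 2 rose (0.16). With the block, where 50% of all genes fell, 20 of the 38 Zbtb, 10 of the 13 Klf, 3 of the 5 Sp and 7 of the 17 Zkscan and Zscan RNAs fell. Against 30.5% of all genes, 5 Zbtb, 2 Klf, 0 Sp and 6 Zkscan and Zscan RNAs then rose.

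**Figure D5:**
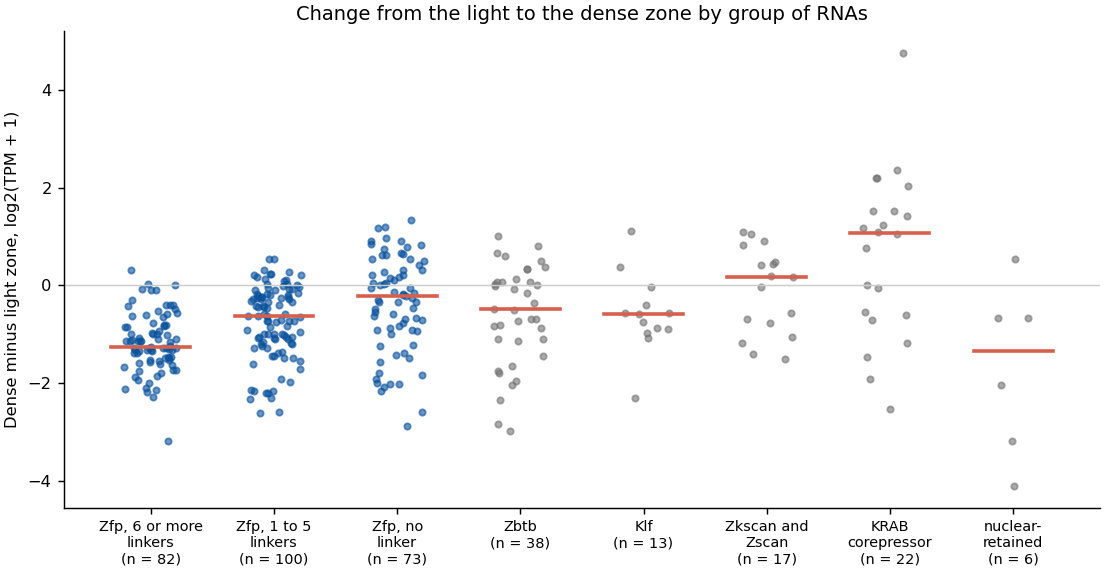
Dense minus light zone, as a difference of mean log2(TPM + 1) over 2 gradients, for Zfp RNAs by number of linkers (blue) and for other lists of RNAs (gray), 1 point per RNA with the median as a red bar; points are spread sideways for legibility. The medians of Zfp RNAs go from -1.26 with 6 or more linkers to -0.23 with none, and that of the KRAB corepressor list is 1.08.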

How the data were processed

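RNA from sucrose gradient fractions was sequenced after ribosomal RNA depletion with a stranded kit. The authors pseudo-aligned reads with Kallisto to mm10 RefSeq transcripts (version not given in the sources used here) and deposited TPM per symbol. TPM keeps no counts, so depth and counting error are unknown and no count model was used. The number of value columns without a sample was 0.

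Zone means of log2(TPM + 1) were tested with limma 3.58.1 in R 4.3.3 (trend, two-sided, no block), over genes that averaged 1 TPM or more in the 24 zone libraries, and the script was tested on simulated data. Libraries of a gradient come from 1 homogenate, which pairs the zones: the gradients' deviations correlated at 0.665 (light and middle), 0.540 (light and dense) and 0.798 (middle and dense), so counts with the gradient as a block are given beside those without it where they differ by over 1.5 times, as is a changed call of a named gene from light to dense. Of the 9984 values of members 23 were 0, in 12 members. Alternatives changed the pseudocount, filter, normalization, zones and members.

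Lengths, GC content, fingers, linkers and KRAB-like matches came from GENCODE M21 reading frames (GRCm38), in place of the planned protein tables, which were not used here; these transcripts may differ from the RefSeq ones quantified. Named are the 8 most abundant members in gradient 1, the 8 largest falls and up to 8 rises, the 3 highest and lowest R, those next to the limit and genes of listed functions. Members and lists were chosen with earlier results of these data known. Calculations used Python 3.11.15, pandas 2.3.3 and SciPy 1.17.1.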

Additional observations from a re-analysis of the deposited data

How the results depend on the processing

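Each alternative below was compared with 135 falls, 7 rises and a median of -0.80 from light to dense, 68, 6 and -0.35 from light to middle, and 58, 0 and -0.45 from middle to dense; counts and medians not named moved less than 1.5 times or than the spread. With the replicate block, which follows the pairing by gradient, 21 rose from light to dense, 121 fell and 31 rose from light to middle, and 128 fell and 6 rose from middle to dense; of the genes named in the text, Zfp598, Zfp395, Zfp830, Zfp445 and Mlxipl passed from light to dense only with it (adjusted p = 0.0409, 0.0144, 0.00675, 0.0300 and 0.0177). Quantile normalization, which shifted the median of all genes from -0.43 to -0.05, gave 25 rises and a median of -0.30 from light to dense, 17 rises and -0.16 to the middle, and 18 falls, 4 rises and -0.092 from middle to dense. It turned the sign of Zfp768 (0.15), Zfp438 (0.48), Zfp7 (0.65), Zfp689 (0.40) and Zfp334 (0.53), none of which had passed the test, and ended the calls of Zfp420 and Zfp11. A mean TPM of at least 10 left 34 falls, 3 rises and -0.72 from light to dense, 16, 3 and -0.20 to the middle, and 23 falls and -0.57 from middle to dense, over fewer members. Members with at least 5 TPM in gradient 2, again fewer, gave 60 falls from light to dense, 28 and -0.21 to the middle, and 33 and -0.58 from middle to dense. The number of members left by these limits and the share of all genes under them are not given here. Their counts can therefore not be read as a loss or gain against 135, and only the medians compare. A pseudocount of 0.1 gave medians of -0.99, -0.44 and -0.59. Wide zones gave -0.71 and -0.26 for the first 2 steps, a positive sign for Zfp7 (0.078) and no call for Zfp622. Narrow zones gave -0.44 from light to middle and a positive sign for Zfp768 (0.12). Rescaling without the 50 most abundant genes gave -0.45 from light to middle. Added after seeing the data, members with at most 20% of shared 31-base words gave -0.68 and -0.28 for the first 2 steps, and a light zone without fraction 4 gave -0.38 to the middle and ended the calls of Zfp622 and Zfp692. Leaving out either gradient allows no test; the medians ranged from -0.81 to -0.72 from light to dense, from -0.38 to -0.36 to the middle and from -0.50 to -0.37 from middle to dense. Weighting by log2(TPM + 1) moved the median centers to 11.5 and 11.3, members with at least 5 TPM had 10.7 in gradient 2, and all 22 fractions gave 11.7. The median R was 0.889 for members with at least 5 TPM and fell to 0.698 and 0.718 when the fraction numbers of gradient 2 were shifted by -1 and 1. The cause of these changed calls and signs was not tested. Precision is limited by 2 gradients and by low TPM.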
